A study of Homo sapiens with 4 samples.

Results

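Antisense long noncoding RNAs are transcripts read from the DNA strand opposite a named gene, the sense gene, and carry that gene's symbol followed by -AS and, for most, a number. They were followed here in HCT116 cells, a human colorectal carcinoma line, in which CDK8 had been knocked down. CDK8 is a cyclin-dependent kinase that binds the Mediator complex reversibly, and Mediator conveys signals from transcription factors to RNA polymerase II. The array carried 770 antisense genes named by their symbol, and 275 of them were selected on a mean log2 RMA signal over the 4 arrays above 4.2775. That level is the median of all transcript clusters, a transcript cluster being the set of probes that the array summarises as 1 transcript unit. Where a gene had several clusters the brightest was used. The members were thus chosen by the mean signal over both groups and not by the difference between them. The other 495 antisense genes lay under the level.

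Cells that had received CDK8 siRNA, on 2 arrays, were compared with cells that had received control siRNA, on another 2. All cells received siRNA at 50 nM by lipid transfection and were taken after 48 h, and total RNA was hybridised. No array of untransfected cells was used, and the labels do not say how many siRNAs were used, so effects of the reagent itself and of losing CDK8 cannot be told apart. The arrays of each group are labelled as biological replicates, with nothing on separate culture days, so the p-values measure only the spread between these arrays. With 2 arrays against 2 an exact permutation test of a single gene cannot go below p = 0.333, and every adjusted p given is from a limma model over 13944 genes.

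Antisense RNAs arise in several ways. Some start close to the promoter of their sense gene and are read away from it (head to head), others are read through its exons or introns (overlapping), and others meet it at their 3′ ends (tail to tail). Many are short-lived nuclear RNAs removed by the RNA exosome. Individual members are known to act on their sense gene, as BACE1-AS does by pairing with and stabilising BACE1 mRNA, while for most no function is established.

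The CDK8 signal was 9.99 and 10.04 with control siRNA and 7.25 and 7.45 with CDK8 siRNA, a fall of 6.34-fold (limma, log2 change -2.67 ± 0.09 SE, adjusted p = 4.43e-05). The arrays correlated at 0.998 within the control group, at 0.997 within the CDK8 siRNA group and at 0.963 to 0.965 between groups. Of 9 colon epithelial markers, 5 lay at or above the signal level, and the CDX1, CDX2, VIL1 and LGALS4 genes of the differentiated intestine lay under it. CDH1, which encodes E-cadherin, rose from 7.02 and 7.28 to 10.06 and 9.90. The other tested epithelial markers changed less and in both directions. EPCAM and KRT19 rose by 0.65 and 0.43, KRT18 changed by -0.335, and KRT8 did not pass (0.045, adjusted p = 0.802). Of the markers of other cells, 1 of 5 fibroblast genes (COL1A1), 1 of 5 blood cell genes (CD68) and 0 of 4 endothelial genes reached the level. The log2 of the summed blood cell marker signal was 7.25 to 7.39 in the control arrays and 8.28 to 8.45 in the CDK8 siRNA arrays, with PTPRC, the pan-leukocyte marker, under the level. The fibroblast sum was 6.21 to 6.24 against 6.45 to 6.47, and the endothelial sum 5.58 to 5.59 against 5.6 to 5.67. The part of these markers in the results was not tested.

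A smaller share of the antisense RNAs than of all genes passed the test. In all, 70 of the 275 passed the test (adjusted p under 0.05), 25.5% of them, against 49.5 percent of all genes tested. Among them 39 were higher with CDK8 siRNA and 31 lower, where 23.2 percent of all genes tested were higher and 26.4 percent lower. The remaining 205 did not pass. All 4 values kept the groups apart in 149 antisense RNAs, 54.2% of them, against 74.7 percent of all genes tested. The split by direction depended on how the arrays were brought to 1 scale, with 32 higher and 38 lower after quantile normalisation and 28 higher and 45 lower after each array was centred on its median. Leaving out an array lowered both counts. When control siRNA replicate 1 was dropped, 8 were higher and 12 lower, and when control siRNA replicate 2 was dropped, 7 and 11. Dropping CDK8 siRNA replicate 1 left 22 and 18, and dropping CDK8 siRNA replicate 2 left 21 and 16. The share of all genes called fell alongside, to between 22.4% and 32.3%.

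The changes were also small. Only 5 of the 70 called antisense RNAs reached a 2-fold difference, 1.82% of the 275 against 10.8 percent of all genes tested. A further 20 lay between 1.5-fold and 2-fold and 45 under 1.5-fold, and the smallest called log2 change was 0.225. The median size of a log2 change, without its sign, was 0.15 over the antisense RNAs and 0.27 over all genes tested, while the median signed change was 0.04 and 0.005. The SE of a change was nearly the same in both, with a median of 0.0833 and 0.0832. Signal was not: the median was 4.97 over the antisense RNAs (range 4.2825 to 11.19) and 6.86 over all genes tested. RMA signals are compressed near the background, so a fold change of a dim gene is understated.

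The share called was therefore set out within bands of signal. Under the 75th percentile of all clusters lay 222 antisense RNAs, of which 45 were called (20.3%, against 30.3 percent of 5467 genes). At or above it lay 53, of which 25 were called (47.2%, against 62.0 percent of 8477 genes). The 193 sense genes that were tested had 36 higher and 70 lower, 54.9% called, with 32.8% in the lower band and 64.4% in the upper. With 1 array left out, between 9 and 26 antisense RNAs were called in the lower band and between 9 and 14 in the upper. Antisense RNAs thus had the smaller share called in both bands. Their median signal within the bands was 4.78 and 7.09, against 5.16 and 8.72 for the sense genes. The bands therefore did not fully match the signal of the sets, and the part of signal in the remaining gap was not tested.

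**Figure D1:**
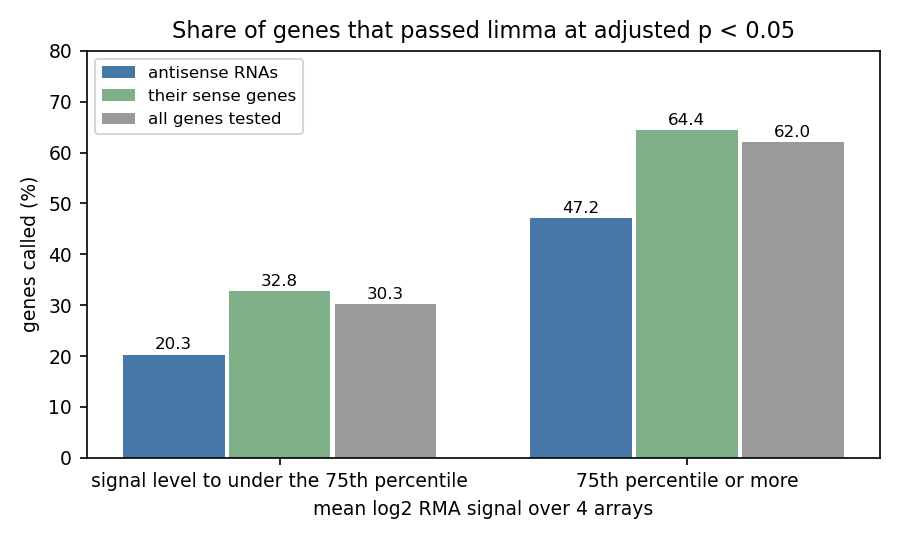
Share of genes called (percent, adjusted p under 0.05) below and at or above the 75th percentile of the mean log2 RMA signal, for antisense RNAs, their sense genes and all genes tested. Antisense RNAs have the lowest share in both bands, 20.3% and 47.2%, against 30.3% and 62.0% of all genes tested.

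Members that lie near the signal level could have entered through 1 group alone. In 252 members both group means reached the level, and of these 31 were called higher and 30 lower. Another 17 had a control mean under the level and held 8 calls, all higher, and 6 had a CDK8 siRNA mean under it, with 1 call, lower. The rule fixed these directions, since such members reach the level only through the other group. Their calls remain in the counts given above. The member nearest the level was ZBTB20-AS1, with a mean of 4.2825 (4.34 and 4.27 against 4.17 and 4.35), and the nearest antisense RNA left out was CLIP1-AS1 (4.02 and 4.27 against 4.45 and 4.37).

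Signals of an antisense RNA and its sense gene may share a source in the genome, and the strand each probe reads was not analysed here, so for overlapping pairs cross-signal cannot be told apart from these values. Levels of different probe sets are on different scales, and only the changes within a probe set are compared between genes. In bulk RNA, fewer cells with a transcript and less of it per cell cannot be told apart.

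The start regions of the antisense RNAs could be read for 206 of the 275, as windows from 250 bases before to 50 bases after the transcript start (RefSeq, GRCh38.p14). By the RefSeq positions 146 members overlapped their sense gene, 33 lay head to head with it, 3 tail to tail, and 91 could not be placed. In the head-to-head group 29 of 33 windows shared bases with the sense gene's window on the opposite strand, and the median distance between the starts was 148 bases (range 12 to 11946). Of the 33, 10 were called (30.3%), 3 higher and 7 lower, and of the 146 overlapping members 33 were called (22.6%). These shares stand beside 49.5 percent of all genes tested. With 1 array left out, between 5 and 7 head-to-head members and between 7 and 21 overlapping members were called.

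A set of 4 head-to-head start regions is shown, all with the antisense RNA called. They include a pair that rose together and a pair that fell together. The others are an antisense RNA that fell while the sense gene did not pass, and a pair that moved apart. Left out are pairs with the sense gene alone called (9 of 28 tested pairs) or neither (9), and antisense RNAs that rose alone. The 4 regions were chosen after their values were seen. Each runs 5′ to 3′ on the strand of the antisense RNA, and capitals mark the bases that also lie in the sense gene's own window. ZNF143-AS1 lies on the minus strand at chr11:9460649-9460948 and shares 187 bases with ZNF143, WAC-AS1 on the minus strand at chr10:28532305-28532604 and shares 76 with WAC, ZBED5-AS1 on the plus strand at chr11:10857967-10858266 and shares 263 with ZBED5, and ZNF561-AS1 on the plus strand at chr19:9621232-9621531 and shares 251 with ZNF561.
ZNF143-AS1: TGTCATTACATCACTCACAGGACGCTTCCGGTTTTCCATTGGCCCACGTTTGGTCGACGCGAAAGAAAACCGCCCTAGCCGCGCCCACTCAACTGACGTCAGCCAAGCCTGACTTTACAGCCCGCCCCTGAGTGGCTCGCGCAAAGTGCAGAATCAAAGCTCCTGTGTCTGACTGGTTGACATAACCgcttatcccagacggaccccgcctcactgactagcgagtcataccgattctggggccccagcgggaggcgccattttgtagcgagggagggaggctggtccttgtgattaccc
WAC-AS1: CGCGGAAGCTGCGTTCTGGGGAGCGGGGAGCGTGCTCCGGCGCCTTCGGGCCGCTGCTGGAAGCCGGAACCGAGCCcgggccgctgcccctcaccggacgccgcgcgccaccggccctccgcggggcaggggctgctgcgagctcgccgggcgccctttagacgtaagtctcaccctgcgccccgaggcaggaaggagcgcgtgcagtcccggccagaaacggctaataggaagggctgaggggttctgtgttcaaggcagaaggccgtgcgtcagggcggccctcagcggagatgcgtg
ZBED5-AS1: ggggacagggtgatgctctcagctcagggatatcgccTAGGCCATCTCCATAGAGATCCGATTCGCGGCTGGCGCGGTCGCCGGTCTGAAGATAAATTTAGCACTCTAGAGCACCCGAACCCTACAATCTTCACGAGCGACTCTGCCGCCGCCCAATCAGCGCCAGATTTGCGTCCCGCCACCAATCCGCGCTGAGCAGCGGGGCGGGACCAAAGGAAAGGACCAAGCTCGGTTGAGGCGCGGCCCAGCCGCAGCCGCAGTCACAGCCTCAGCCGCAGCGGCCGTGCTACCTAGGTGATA
ZNF561-AS1: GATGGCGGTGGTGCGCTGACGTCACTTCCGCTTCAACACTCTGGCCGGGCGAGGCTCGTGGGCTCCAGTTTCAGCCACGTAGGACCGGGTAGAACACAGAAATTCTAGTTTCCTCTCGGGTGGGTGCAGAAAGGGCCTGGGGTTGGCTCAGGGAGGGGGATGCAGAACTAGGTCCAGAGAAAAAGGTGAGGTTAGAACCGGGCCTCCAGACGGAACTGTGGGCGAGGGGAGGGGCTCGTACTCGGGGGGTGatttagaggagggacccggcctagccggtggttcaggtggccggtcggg

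These windows were searched on both strands for TATAAA (the TATA box), CCAAT (bound by NF-Y) and GGGCGG (bound by SP1 and its relatives). The ZNF143-AS1 window held 1 CCAAT and 2 GGGCGG, the WAC-AS1 window 1 GGGCGG, the ZBED5-AS1 window 2 CCAAT and 2 GGGCGG, and the ZNF561-AS1 window held none of the 3. Over the 206 antisense windows the shares with a match were close to those over 27305 promoters of the same length: 10.7% against 12% for TATAAA, 35.4% against 35.7% for CCAAT and 45.6% against 44.6% for GGGCGG. Over the windows of all genes tested the shares were 6.18% for TATAAA, 36.9% for CCAAT and 68.9% for GGGCGG. The head-to-head windows were richer in G and C, with a median GC content of 67.3% and 28 CpG, against 61.3% and 19 CpG over all antisense windows and 65.0% and 26 CpG over the windows of all genes tested. They held GGGCGG in 66.7%. A match is a string of letters and no evidence of binding.

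Within the head-to-head group the sense and antisense signals moved in different combinations. ZNF143-AS1 gave 5.94 and 6.33 with control siRNA and 7.06 and 7.28 with CDK8 siRNA, and rose 2.05-fold (log2 change 1.04 ± 0.15 SE, adjusted p = 0.00271). ZNF143, a zinc finger transcription factor that binds many promoters, gave 9.15 and 8.87 against 9.82 and 9.83, and rose by 0.82. Both groups were apart in both genes, and the antisense change minus the sense change within arrays was 0.22 (95% interval -0.36 to 0.80). ZNF143-AS1 did not pass once control siRNA replicate 1 was left out (adjusted p = 0.0504), nor without CDK8 siRNA replicate 1 (adjusted p = 0.0618) or CDK8 siRNA replicate 2 (adjusted p = 0.0836), and ZNF143 did not pass without either CDK8 siRNA array (adjusted p = 0.0643 and 0.0654).

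WAC-AS1 gave 6.35 and 6.47 against 5.78 and 5.83 (log2 change -0.61 ± 0.08 SE, adjusted p = 0.00179). WAC, an adaptor needed for monoubiquitination of histone H2B, gave 11.53 and 11.48 against 10.83 and 10.96. Both were lower in both CDK8 siRNA arrays, by the same size, with a difference of 0.005 between the 2 changes (95% interval -0.27 to 0.28). WAC did not pass once control siRNA replicate 1 was left out (adjusted p = 0.0531), whereas WAC-AS1 was called without any 1 array. RBM26-AS1 and RBM26, which encodes an RNA-binding protein, also fell together, by 0.68 and 0.38, as did KTN1-AS1 and KTN1, the gene of the membrane protein kinectin, by 0.50 and 0.85. RBM26 was not called once any 1 array was left out (adjusted p between 0.0719 and 0.154), nor KTN1-AS1 (adjusted p = 0.116 and 0.128) or KTN1 (adjusted p = 0.0667 and 0.0873) without either control array.

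ZBED5-AS1 gave 6.71 and 6.63 against 5.71 and 5.74 (log2 change -0.95 ± 0.07 SE, 1.92-fold lower, adjusted p = 0.000297). ZBED5, a gene derived from a DNA transposon, gave 7.29 and 7.29 against 7.32 and 7.43 and did not pass (adjusted p = 0.403). The antisense signal was lower in both CDK8 siRNA arrays and the sense signal in neither, and the changes differed by -1.03 (95% interval -1.28 to -0.78). TPT1-AS1 had the same form: it gave 7.86 and 7.84 against 7.26 and 7.29 (adjusted p = 0.00134), while TPT1, which encodes the translationally controlled tumour protein, was at 0.11 (adjusted p = 0.248).

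ZNF561-AS1 and ZNF561 moved apart. ZNF561-AS1 gave 6.12 and 6.10 against 5.83 and 5.43 (log2 change -0.48 ± 0.14 SE, adjusted p = 0.0321). ZNF561, a KRAB-type zinc finger gene, gave 8.42 and 8.29 against 9.09 and 9.16, a rise of 0.77 (adjusted p = 0.000848), and the changes differed by -1.25 (95% interval -1.69 to -0.81). The lower antisense signal was most marked in CDK8 siRNA replicate 2, and the call was lost without that array (adjusted p = 0.0621), without control siRNA replicate 1 (adjusted p = 0.236) or replicate 2 (adjusted p = 0.226). Of the 28 head-to-head pairs with both genes tested, 5 had both called, 4 in the same direction and 1 in opposite directions, 5 had the antisense RNA alone, 9 the sense gene alone and 9 neither. UGDH-AS1 was the widest of those with the sense gene alone: it stayed at 5.22 and 5.44 against 5.29 and 5.36, while UGDH, the enzyme that makes UDP-glucuronate, fell by 1.58 (adjusted p = 0.000109).

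**Figure D2:**
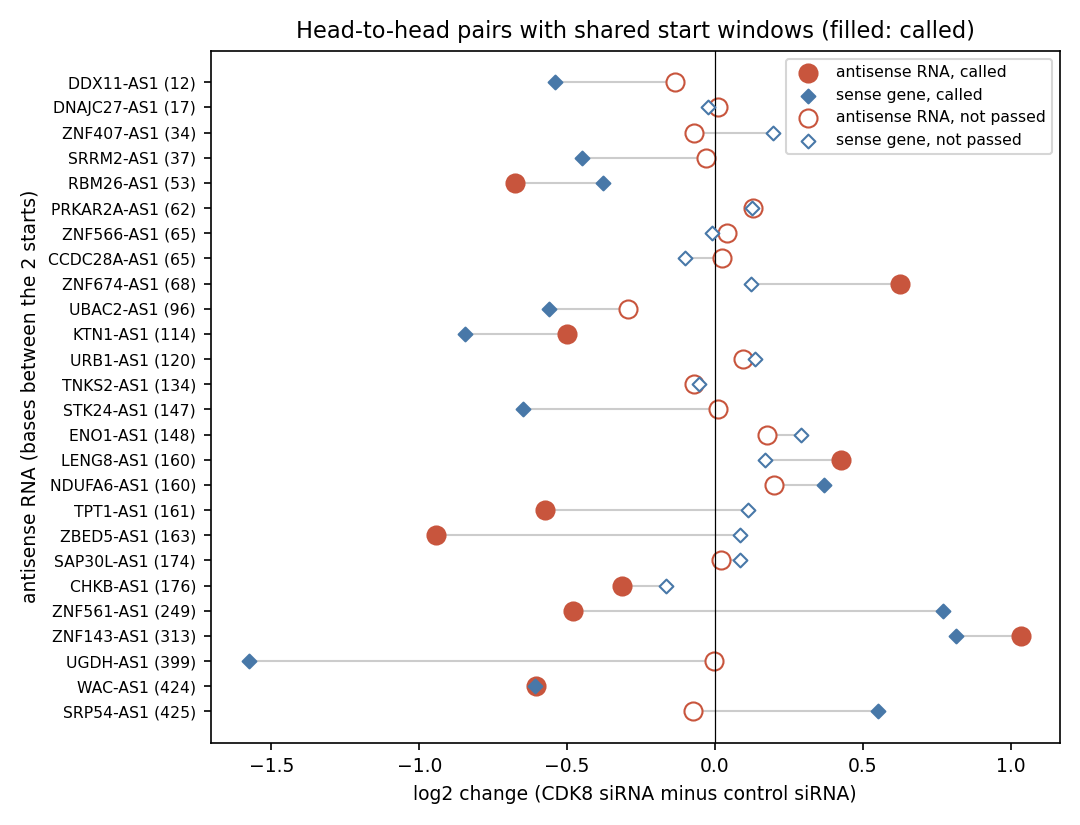
Log2 change (CDK8 siRNA minus control siRNA) of the antisense RNA (circles) and the sense gene (diamonds) in the 26 head-to-head pairs whose start windows share bases and whose genes were both tested, ordered by the bases between the starts. Filled symbols were called; ZNF143 and WAC pairs lie close together, and ZBED5-AS1 and ZNF561-AS1 lie left of their sense genes.

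Among all antisense RNAs the largest rise was that of IDI2-AS1, which overlaps IDI2, an isopentenyl diphosphate isomerase gene, on chromosome 10. It gave 5.12 and 5.03 with control siRNA and 6.38 and 6.29 with CDK8 siRNA, 2.40-fold higher (log2 change 1.26 ± 0.08 SE, adjusted p = 0.000161). IDI2 itself lay under the signal level, with a mean of 3.90, and was not among the genes tested. Its signal was also higher with CDK8 siRNA, at 3.56 and 3.59 against 4.09 and 4.36. FEZF1-AS1 on chromosome 7, studied as a promoter of growth in gastrointestinal cancer cells, gave 5.84 and 5.82 against 6.94 and 6.74, 2.01-fold higher (adjusted p = 0.00049), and its sense gene, a zinc finger factor of the developing forebrain, also lay under the level. Both antisense RNAs were higher in both CDK8 siRNA arrays and were called without any 1 array.

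HNRNPU-AS1 on chromosome 1 gave 9.50 and 9.66 against 10.56 and 10.93, 2.24-fold higher (adjusted p = 0.00129), and lost its call without control siRNA replicate 1 or 2 (adjusted p = 0.0634 and 0.0539). The RefSeq table lists that symbol as a synonym of HNRNPU, so which transcript the cluster reads is uncertain. PSMD6-AS2 on chromosome 3 gave 7.0 and 7.21 against 7.89 and 8.28 (log2 change 0.98 ± 0.15 SE, adjusted p = 0.00321), while PSMD6, a subunit of the proteasome cap, was at -0.20 (adjusted p = 0.0572) and passed as lower after quantile normalisation (adjusted p = 0.0303) and after centring (adjusted p = 0.0188). The call of PSMD6-AS2 too needed both control arrays (adjusted p = 0.0919 and 0.0690 with 1 of them left out).

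THAP9-AS1 on chromosome 4 gave 9.38 and 9.35 against 10.31 and 10.22, 1.87-fold higher (adjusted p = 0.000358), and was called without any 1 array. THAP9, a domesticated transposase gene, was at 0.245 (adjusted p = 0.056), and the changes differed by 0.66 (95% interval 0.35 to 0.96). The other members of the 12 largest rises were CFLAR-AS1, GAS5-AS1, DGUOK-AS1, HIF1A-AS2, SLC7A11-AS1 and SAPCD1-AS1, with log2 changes from 0.65 to 0.97. CFLAR-AS1 lay under the level in both control arrays, at 3.96 and 4.0, and reached 4.62 and 4.91 with CDK8 siRNA. CFLAR-AS1, GAS5-AS1 and SAPCD1-AS1 lost their calls without control siRNA replicate 1 (adjusted p = 0.0772, 0.0899 and 0.139) or 2 (adjusted p = 0.0731, 0.0605 and 0.135), and GAS5-AS1 also without CDK8 siRNA replicate 1 (adjusted p = 0.0693).

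BACE1-AS on chromosome 11 had the largest fall. It gave 7.77 and 7.80 with control siRNA and 6.69 and 6.54 with CDK8 siRNA, 2.25-fold lower (log2 change -1.17 ± 0.08 SE, adjusted p = 0.000228). BACE1, the beta-secretase that cleaves the amyloid precursor protein, fell by 0.29 (adjusted p = 0.0195), and the antisense change was the larger by 0.89 (difference -0.89, 95% interval -1.14 to -0.63). BACE1-AS was called without any 1 array, and BACE1 was not called once any 1 array was left out (adjusted p between 0.0584 and 0.111). BDNF-AS, which overlaps the gene of the neurotrophin BDNF on chromosome 11 and has been reported to repress it, gave 5.23 and 5.21 against 4.43 and 4.25 (log2 change -0.88 ± 0.09 SE, adjusted p = 0.000674). BDNF fell with it, by 0.70, and the changes differed by -0.18 (95% interval -0.45 to 0.09).

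KCTD21-AS1 on chromosome 11 gave 6.26 and 6.31 against 5.42 and 5.44 (log2 change -0.86 ± 0.07 SE, adjusted p = 0.000356), with KCTD21, which encodes an adaptor of a cullin ubiquitin ligase, at 0.045 (adjusted p = 0.652). A second and dimmer KCTD21-AS1 cluster differed from this, at 3.38 with control siRNA and 3.33 with CDK8 siRNA. MSRB3-AS1 on chromosome 12 gave 5.74 and 5.72 against 4.87 and 4.94 (adjusted p = 0.000433), with MSRB3, a methionine sulfoxide reductase, at 0.06 (adjusted p = 0.599). In both pairs the antisense signal was lower in both CDK8 siRNA arrays while the sense gene did not pass. DLGAP1-AS1 on chromosome 18 gave 7.57 and 7.64 against 6.54 and 6.83 (adjusted p = 0.00143), and was not called without control siRNA replicate 1 or 2 (adjusted p = 0.0571 and 0.0638). The other members of the 12 largest falls were ZBED5-AS1, MMP24-AS1, RBM26-AS1, VPS9D1-AS1, WAC-AS1, NR2F1-AS1 and TPT1-AS1, with log2 changes from -0.95 to -0.58. VPS9D1-AS1 was not called without either control array (adjusted p = 0.133 and 0.147), nor MMP24-AS1 without CDK8 siRNA replicate 2 (adjusted p = 0.0568).

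Across the 70 called members, 14 were called whichever array was left out. The 5 higher were IDI2-AS1, FEZF1-AS1, THAP9-AS1, SLC7A11-AS1 and TRAF3IP2-AS1, and the 9 lower were BACE1-AS, ZBED5-AS1, BDNF-AS, KCTD21-AS1, MSRB3-AS1, RBM26-AS1, WAC-AS1, NR2F1-AS1 and TPT1-AS1. TRAF3IP2-AS1, outside the 12 largest rises, gave 5.75 and 5.74 against 6.31 and 6.37. The share of all genes tested that kept their calls whichever array was left out is not given here.

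**Figure D3:**
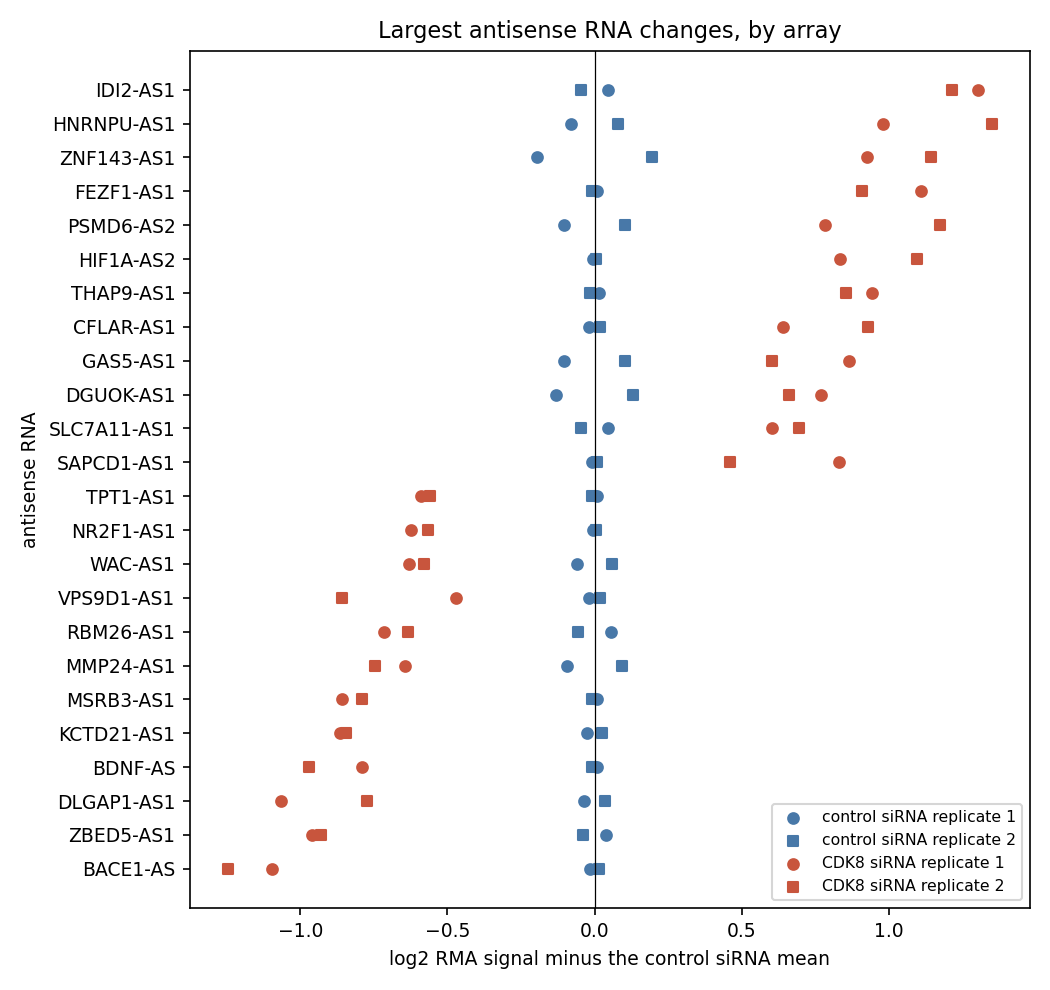
Log2 RMA signal minus the control siRNA mean of that gene (horizontal) for the 12 largest rises and 12 largest falls among the called antisense RNAs, 1 point for each of the 4 arrays. The rule drew only genes whose groups are apart, with log2 changes from 1.26 (IDI2-AS1) at the top to -1.17 (BACE1-AS) at the foot.

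The sense gene was tested for 195 of the 275 antisense RNAs (193 sense genes), lay under the signal level for 56 and was not named by a cluster of 1 symbol, or had no symbol, for 24. In 29 of the 195 pairs both genes were called, 19 in the same direction (8 higher and 11 lower) and 10 in opposite directions. Singly, 48 of the 195 antisense RNAs and 106 of the sense genes (54.4%) were called, and no test of a link between the calls was made. In 19 the antisense RNA alone was called, in 77 the sense gene alone, and in 70 neither. The signs of the 2 changes were the same in 104 of 195 pairs. The changes correlated at r = 0.162 (Spearman 0.144) over the pairs, which are all measured on the same 4 arrays, at r = 0.206 in 106 overlapping pairs and at r = 0.275 in 28 head-to-head pairs. The 95% interval of the antisense minus the sense change left out 0 in 103 pairs, 70 above and 33 below. Because the sense change is subtracted, a lower sense gene by itself moves this difference up, and a higher one moves it down. Of 70 pairs with the sense gene lower, 57 lay above and 1 below, and of 36 with it higher, 0 lay above and 24 below. The median antisense change was 0.02 in the former and 0.09 in the latter, so this split is no result about the antisense RNAs. The intervals were not adjusted for the number of pairs. Leaving out 1 array took the same-direction count to between 4 and 8, and the opposite-direction count to 0 when either control array was dropped, 6 when CDK8 siRNA replicate 1 was dropped and 4 when CDK8 siRNA replicate 2 was.

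**Figure D4:**
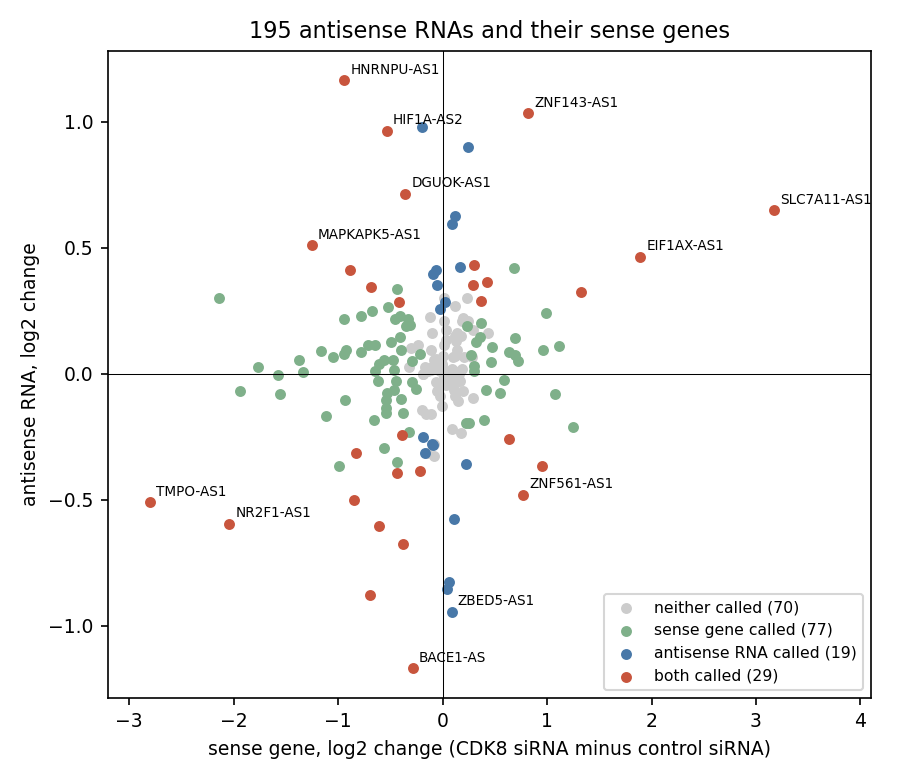
Log2 change of the antisense RNA (vertical) against that of its sense gene (horizontal), CDK8 siRNA minus control siRNA, 1 point for each of the 195 pairs with both tested, coloured by which of the 2 was called. Sense changes span -2.81 to 3.17 while antisense changes lie near 0 for most pairs (r = 0.162).

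Of the 10 opposite pairs, 7 had the antisense RNA higher and the sense gene lower. HNRNPU, a nuclear RNA-binding protein that organises chromatin, fell by 0.95 while HNRNPU-AS1 rose by 1.17, and the changes differed by 2.11 (95% interval 1.71 to 2.51). As stated above, which transcript the HNRNPU-AS1 cluster reads is uncertain, so this may not be an antisense and sense pair. HIF1A-AS2, which is read across the 3′ end of HIF1A on chromosome 14, gave 5.56 and 5.57 against 6.40 and 6.66 (adjusted p = 0.000897), with a second cluster going from 3.82 to 5.61. HIF1A, the oxygen-regulated subunit of the hypoxia factor, gave 13.98 and 13.94 against 13.38 and 13.47. The antisense RNA was higher and the sense mRNA lower in both CDK8 siRNA arrays, with a difference of 1.5 (95% interval 1.23 to 1.77). HIF1A-AS2 did not pass once either control array was left out (adjusted p = 0.0502 and 0.0511), and HIF1A did not pass with control siRNA replicate 1 left out (adjusted p = 0.0515).

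MAPKAPK5-AS1 on chromosome 12 gave 7.09 and 7.25 against 7.61 and 7.75 (log2 change 0.51 ± 0.09 SE, adjusted p = 0.00637) beside a fall of 1.26 in MAPKAPK5, a stress-activated kinase, but was not called once any 1 array was left out (adjusted p between 0.0545 and 0.0855). DGUOK-AS1 rose by 0.72 beside DGUOK, a mitochondrial deoxyguanosine kinase, which fell by 0.36. PRMT5-AS1 rose by 0.41 beside the arginine methyltransferase PRMT5, which fell by 0.89. IGF2BP2-AS1 rose by 0.35 beside the mRNA-binding protein IGF2BP2, which fell by 0.69, and FAM13A-AS1 by 0.29 beside FAM13A, which fell by 0.42. PRMT5-AS1 (4.27 and 4.22) and FAM13A-AS1 (4.25 and 4.22) lay under the signal level in the control arrays and entered the set through the CDK8 siRNA arrays. Only a rise was open to them, and they remain in the count of opposite pairs. The 3 with the antisense RNA lower were ZNF561-AS1, ATP8B1-AS1 (-0.37, with the phospholipid flippase ATP8B1 at 0.96) and FAM83H-AS1 (-0.26, with FAM83H, a keratin-organising protein, at 0.64). DGUOK-AS1 lost its call without either CDK8 siRNA array (adjusted p = 0.0797 and 0.0640), PRMT5-AS1 and ATP8B1-AS1 without either control array (adjusted p between 0.0634 and 0.0866), and IGF2BP2-AS1 under quantile normalisation (adjusted p = 0.0580) and under centring (adjusted p = 0.0650). IGF2BP2-AS1 also needed both control arrays (adjusted p = 0.185 and 0.181) and CDK8 siRNA replicate 2 (adjusted p = 0.0776). PRMT5-AS1 was also not called without CDK8 siRNA replicate 2 (adjusted p = 0.0515). DGUOK, FAM13A-AS1 and FAM83H-AS1 were not called once any 1 array was left out (adjusted p between 0.0553 and 0.206, 0.0503 and 0.139, and 0.0705 and 0.119), and FAM13A and FAM83H each needed both CDK8 siRNA arrays (adjusted p between 0.0529 and 0.0621). FAM13A was also not called without control siRNA replicate 1 (adjusted p = 0.0637).

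In several pairs that moved in the same direction the measured change of the sense gene was much larger. SLC7A11-AS1, EIF1AX-AS1 and MACC1-AS1 had control means of 4.285, 4.1 and 4.145, near the background, where changes are understated. TMPO-AS1 and NR2F1-AS1 were brighter, at 7.375 and 7.665. The part of this compression in the differences was not tested. SLC7A11, the cystine-glutamate antiporter, rose by 3.17 and SLC7A11-AS1 by 0.65, from 4.33 and 4.24 to 4.89 and 4.98 (adjusted p = 0.00134), a difference of -2.52 (95% interval -2.77 to -2.28). TMPO, which encodes the lamina-associated polypeptide 2, fell by 2.81 and TMPO-AS1 by 0.51, from 7.47 and 7.28 to 6.69 and 7.04 (adjusted p = 0.0258), a difference of 2.30 (95% interval 1.87 to 2.72). NR2F1, an orphan nuclear receptor, fell by 2.05 and NR2F1-AS1 by 0.60, from 7.66 and 7.67 to 7.04 and 7.10, a difference of 1.45 (95% interval 1.11 to 1.79). EIF1AX, a translation initiation factor, rose by 1.89 and EIF1AX-AS1 by 0.47, and MACC1, a regulator of the MET gene in colon cancer, rose by 1.32 and MACC1-AS1 by 0.33. Both of these antisense RNAs lay under the signal level in the control arrays (4.09 and 4.11, and 4.12 and 4.17) and entered the set through the CDK8 siRNA arrays. Only a rise was open to them, and they remain in the count of pairs called in the same direction. TMPO-AS1 was not called once any 1 array was left out (adjusted p between 0.0524 and 0.239). EIF1AX-AS1 lost its call without either control array (adjusted p = 0.114 and 0.109), and MACC1-AS1 without either control array (adjusted p = 0.201 and 0.164), with CDK8 siRNA replicate 2 left out (adjusted p = 0.0976) and under quantile normalisation or centring (adjusted p = 0.0667 and 0.0738).

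Of 19 sense genes called and changed at least 2-fold, 6 had the antisense RNA called, 5 in the same direction and 1 in the opposite. Over all pairs the antisense RNA was called in 48 of 195. Another 3 of these genes, named after their values were seen, show the range. SOX9-AS1 gave 4.80 and 4.81 against 4.70 and 4.77 (adjusted p = 0.465), while SOX9, a transcription factor of the intestinal crypt, fell by 1.94. RUVBL1-AS1 gave 5.33 and 5.08 against 5.29 and 5.17 (adjusted p = 0.87), with RUVBL1, an ATPase of chromatin-remodelling complexes, which fell by 1.77. ATP2B1-AS1 gave 4.52 and 4.70 against 4.76 and 5.06 (adjusted p = 0.0994), with ATP2B1, a plasma membrane calcium pump, which fell by 2.15. The antisense groups overlapped for RUVBL1-AS1 and lay close together for SOX9-AS1 and ATP2B1-AS1. The 95% interval of the difference in change was 1.41 to 2.33 for SOX9-AS1, 1.47 to 2.11 for RUVBL1-AS1 and 2.07 to 2.82 for ATP2B1-AS1. These 3 antisense RNAs were dim, so their changes may be understated, and the part of this in the intervals was not tested.

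The 5 brightest members were PRRT3-AS1, EMC3-AS1, HNRNPU-AS1, OIP5-AS1 and THAP9-AS1. PRRT3-AS1 had the highest mean, 11.19, and gave 11.11 and 11.02 against 11.28 and 11.36 (log2 change 0.26 ± 0.08 SE, adjusted p = 0.0382). That call was lost under quantile normalisation (adjusted p = 0.0627), under centring (adjusted p = 0.106) and without any 1 array (adjusted p between 0.0880 and 0.182). EMC3-AS1 gave 10.78 and 10.82 against 10.91 and 10.86 (adjusted p = 0.372), while EMC3, a subunit of the ER membrane protein complex, rose by 0.64, a call that needed both control arrays (adjusted p = 0.0649 and 0.0706). OIP5-AS1, a cytoplasmic RNA known as cyrano that is read beside the mitotic gene OIP5, gave 9.88 and 10.01 against 9.81 and 9.74 (adjusted p = 0.14) and, of the alternatives run, passed after centring alone (adjusted p = 0.0487), while OIP5 fell by 1.12. OIP5 did not pass with control siRNA replicate 2 (adjusted p = 0.0545) or CDK8 siRNA replicate 2 (adjusted p = 0.0641) left out.

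Of 81 antisense RNAs listed as studied in cancer cells, 60 were on the array and 35 were tested, with 5 higher and 10 lower and a median log2 change of -0.135, against 0.04 over the 275. The share called was 42.9%, against 25.5% of the 275 and 49.5 percent of all genes tested. Centring gave 4 and 14, and leaving out 1 array 2 to 3 higher and 3 to 6 lower. The higher ones included IDI2-AS1 and FEZF1-AS1 and the lower ones BACE1-AS and BDNF-AS. Of the antisense RNAs in the HOX clusters only 2 were tested, HOXB-AS4 (0.26, adjusted p = 0.0494, not passed under centring, adjusted p = 0.124, or without any 1 array, adjusted p between 0.0702 and 0.193) and HOXB-AS3 (-0.17, adjusted p = 0.258). Of 11 antisense RNAs to zinc finger genes 2 were higher, ZNF143-AS1 and ZNF674-AS1 (0.63, adjusted p = 0.018), and 2 lower, ZNF561-AS1 and ZNF503-AS1 (-0.29, adjusted p = 0.0402). The share called was 36.4%, and with 1 array left out 0 to 1 were higher and 0 to 1 lower. ZNF674-AS1 and ZNF503-AS1 were each not called without control siRNA replicate 1 (adjusted p = 0.206 and 0.142), control siRNA replicate 2 (adjusted p = 0.141 and 0.227) or CDK8 siRNA replicate 1 (adjusted p = 0.0941 and 0.0644), and ZNF503-AS1 also not without CDK8 siRNA replicate 2 (adjusted p = 0.150).

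Other classes of long noncoding RNA were set beside them. Of 38 divergent transcripts (suffix -DT), 4 were higher and 7 lower, where USP46-DT fell by 1.13 (adjusted p = 0.000198) and GAS6-DT rose by 0.66 (adjusted p = 0.00423). Of 34 intronic transcripts (suffix -IT), 10 were higher and 2 lower, with a median change of 0.14, and AGPAT4-IT1 rose by 0.75 (adjusted p = 0.00466). Of 133 intergenic RNAs (prefix LINC), 26 were higher and 9 lower, with a median of 0.085 and rises of 1.75 in LINC00944 (adjusted p = 6.11e-05) and 1.42 in LINC00662 (adjusted p = 8.45e-05). Of 9 microRNA host genes, 1 was higher and 2 lower, MIR100HG at -0.98 (adjusted p = 0.000238) and MIR924HG at -1.08 (adjusted p = 0.000582). The shares called were 28.9% of the -DT, 35.3% of the -IT and 26.3% of the LINC RNAs, and 33.3% of the microRNA host genes. All lay under the 49.5 percent of all genes tested, as for the antisense RNAs. With 1 array left out the higher and lower counts were 1 to 2 and 3 to 4 for -DT, 2 to 3 and 0 to 1 for -IT, and 6 to 12 and 2 to 7 for LINC RNAs, and AGPAT4-IT1 was not called (adjusted p between 0.0512 and 0.0881), nor GAS6-DT without either CDK8 siRNA array (adjusted p = 0.0882 and 0.0877).

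Factors that remove or terminate such RNAs were also measured. Of 22 genes of nuclear RNA surveillance, 4 were higher and 9 lower, 59.1% of them against 49.5 percent of all genes tested, with a median change of -0.11. The exosome core subunits EXOSC9, EXOSC8 and EXOSC5 fell by 0.93, 0.91 and 0.96 (adjusted p = 0.000288, 0.000408 and 0.000851), while DIS3, the catalytic exosome nuclease, rose by 0.91 (adjusted p = 0.000764). Of 14 subunits of Integrator, a complex that cleaves and terminates small nuclear RNAs and other short transcripts, 2 were higher and 7 lower, 64.3% against the same 49.5 percent, with a median of -0.285 and falls of 1.40 in INTS3 (adjusted p = 0.000219) and 1.14 in INTS8 (adjusted p = 0.000148). The surveillance and Integrator genes are bright, with a median signal of 9.17 and 8.84 against 6.86 over all genes tested. Of the genes at or above the 75th percentile of signal, 62.0 percent were called, close to both shares. With 1 array left out the higher and lower counts were 1 to 5 and 4 to 5 for the surveillance genes and 0 to 1 and 3 to 6 for Integrator, and the genes named here kept their calls. Whether these changes bear on the antisense RNAs was not tested.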

How the data were processed

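Total RNA of 4 HCT116 samples was measured on Affymetrix HTA arrays. The authors deposited log2 signals; the submitters' processing notes name RMA and Affymetrix Expression Console, with versions and genome build not given in the sources used here. The deposited table held 70523 entries, of which 67528 were transcript clusters and were used. It had 0 columns of other samples. Clusters named by 1 gene symbol in the platform annotation (23781; 1543 had several and 42204 none here) were kept, 306 symbols were updated through RefSeq, and antisense symbols were kept as on the platform. The brightest cluster of each gene was used, and genes with a mean above 4.2775, the median of all clusters, were tested with limma 3.58.1 (lmFit and eBayes in R 4.3.3) and Benjamini-Hochberg adjustment over 13944 genes at a threshold of 0.05. The difference between the antisense and the sense change was fitted in the same way on within-array differences over 195 pairs. Precision is limited by the number of arrays. On simulated data of 13944 genes, limma recovered 1, 10, 43 and 49 of 50 changes of 0.25, 0.5, 1 and 2 on the log2 scale, and called 5 unchanged genes. Only 50 changes of each size were put in, whereas 49.5 percent of all genes tested were called on the arrays. Recovery with so large a share changed was not tested.

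Genes named are the 12 largest rises and falls among called members with groups apart, up to 8 pairs called in opposite and 8 in the same direction, up to 4 members of each gene list, the 5 brightest, those nearest the level, CDK8, and the sense genes. Others are said to be chosen after their values were seen. The antisense RNAs and the lists were chosen with earlier results of these data known. The alternatives run were the whole table unfiltered, only clusters from the 75th percentile up, quantile normalisation, centring, eBayes with a trend or robust settings, the mean of a gene's clusters, a block for the replicate number, each array dropped in turn, and stricter thresholds.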

Additional observations from a re-analysis of the deposited data

How the results depend on the processing

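The counts of antisense RNAs called higher, called lower, and called with the sense gene in the same and in opposite directions were 39, 31, 19 and 10. Keeping only the 53 members from the 75th percentile of signal up gave 13, 14, 7 and 4, with 50.9% of them called against 63.8% of all genes kept. An adjusted p under 0.01 gave 18, 16, 7 and 5, with 12.4% of the members called against 34.7% of all genes tested. A 2-fold minimum gave 4, 1, 0 and 0. Leaving out 1 array gave 7 to 22, 11 to 18, 4 to 8 and 0 to 6. With the replicate number as a block the counts were 32, 24, 13 and 11, with 20.4% of the members called against 44.0% of all genes tested. The replicate numbers were not shown to pair the arrays, since the deviations of same-numbered arrays correlated at 0.121 over only 2 numbers. The other settings stayed within 1.5 times of the reported counts. Of the 70 called members, 60 were also called with no filter, 61 after quantile normalisation, 59 after centring and 51 with the block. The median change of all genes was 0.005 as reported, -0.03 after quantile normalisation and -0.07 after centring. Over 71 genes (the antisense RNAs named by the rule, their sense genes and CDK8) and 825 comparisons with an alternative, 717 kept their call, 105 lost it, 3 gained it and 0 changed sign. With 2 arrays a group, a call at these sizes rests on few residual degrees of freedom, and a missing call does not show that a gene did not change.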

Other observations

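The 495 antisense genes under the signal level were also fitted in a model without the filter. Of these, 23 passed (4.65%, against 29.8% of the 22415 genes in that model), 20 higher and 3 lower with CDK8 siRNA. The median signal of all transcript clusters was 4.24 and 4.24 in the control arrays and 4.32 and 4.31 in the CDK8 siRNA arrays. For these dim genes the split by direction was not rerun after centring or quantile normalisation, and the part of this offset in it was not tested. TSC22D1-AS1, read opposite a leucine zipper gene induced by TGF-beta, gave 4.0 and 3.74 with control siRNA and 4.69 and 4.40 with CDK8 siRNA (limma, log2 change 0.68, adjusted p = 0.0210). SAMD12-AS1, whose sense gene is SAMD12, was higher by 0.49 (adjusted p = 0.00656). The 3 lower ones were FBXL19-AS1, NAALADL2-AS3 and BCDIN3D-AS1, with log2 changes of -0.46, -0.32 and -0.26. These signals lie near the background of the array, and the genes were named after their values were seen.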
